A study of Fagopyrum tataricum with 9 samples.

Results

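Abscisic acid is a plant hormone that is sensed in the cell by a family of small soluble proteins, the abscisic acid receptors. A set of 4 receptor genes of Tartary buckwheat (Fagopyrum tataricum) was followed through seed development. They are the genes whose best Swiss-Prot matches in the deposited gene table are the Arabidopsis receptors PYR1, PYL3, PYL8 and PYL9, and they were taken by gene identifier. They make up 4 of the 16 genes that carry an abscisic acid receptor name by Swiss-Prot match, and 4 of the 33931 genes of the count table. The names PYR1, PYL3, PYL8 and PYL9 are used below for these matches; the names are those of the best matches, not of the buckwheat genes themselves. All 4 passed the filter on low counts.

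In Arabidopsis, a receptor that has bound the hormone docks onto clade A protein phosphatases 2C and blocks them. The blocked phosphatases no longer hold back the SnRK2 kinases, which then activate bZIP transcription factors of the ABI5 and ABF type and, through them, genes of seed maturation, dormancy and drought tolerance. Arabidopsis PYR1 and PYL3 belong to the receptors that form dimers and come apart on binding the hormone, whereas Arabidopsis PYL8 and PYL9 are monomers.

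RNA was sequenced from seeds of the variety MIQIAO 1, grown in an experimental field, with no agent or genetic change named in the labels. The 9 libraries fall into 3 stages of 3 libraries: green fruit (13 days post anthesis), discoloration (19 days) and initial maturity (25 days). The labels list the days and the stage names separately, and the days were assigned to the stages in developmental order. Per the labels, seeds of the 3 stages were taken from the same individual and 3 plants served as replicates, but no label states that a replicate number stands for a plant. The comparisons therefore ask how the level of each receptor gene differs between a later and an earlier stage of the seed.

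The libraries held 21585045 to 26777643 counts. In each stage 1 library stood apart from a close pair: green fruit library 1, discoloration library 1 and initial maturity library 2 were set off from the others of their stage by a chi-square of at least 42.5 per degree of freedom, against 1.98 to 3.54 within the close pairs. The close pairs still exceeded sampling noise and each library was counted, so p-values reflect a spread among libraries that may in part be technical. The 16 genes of the seed storage list (13S globulin, legumin, vicilin and oleosin names) were detected in all 9 libraries. Their summed level was 16608 to 58775 CPM (counts scaled to library size, here by the TMM method) in green fruit, 240020 to 260829 CPM at discoloration and 245937 to 361050 CPM at initial maturity. Between scalings the whole table shifts: with library totals in place of TMM, the median log2 change of all genes was -1.03 rather than -0.041 for discoloration against green fruit, -0.37 rather than -0.022 for initial maturity against discoloration and -1.39 rather than -0.056 for initial maturity against green fruit. The share of called genes that were higher at the later stage was 49.5%, 43.9% and 46.6% in these comparisons with TMM, and 10.2%, 20.8% and 10.7% with library totals.

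The 4 genes lie on 3 chromosomes, all on the minus strand, in a build not given in the sources used here. PYR1 (FtPinG0004424000.01) is on chromosome 3 from 33880185 to 33880925 and PYL3 (FtPinG0001799400.01) on chromosome 6 from 28505058 to 28505678. For both, the deposited gene length equals the span, 741 bases for PYR1 and 621 bases for PYL3. PYL8 (FtPinG0001214600.01) is on chromosome 7 from 38582155 to 38583732 and PYL9 (FtPinG0002585600.01) on the same chromosome from 13069826 to 13071497. Their deposited lengths of 747 and 835 bases are shorter than their spans of 1578 and 1672 bases, so the 2 genes with monomeric Arabidopsis matches have room for introns and the 2 with dimeric matches have none in these models. BLAST E-values of the matches ran from 1.16e-73 for PYL3 to 1.99e-93 for PYL9, and the KEGG names in the same table give a receptor for each of the 4.

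PYL3 was the gene that rose. It had 4.02, 1.92 and 1.74 CPM in green fruit libraries 1 to 3, 14.6, 14.3 and 12.6 CPM at discoloration and 8.41, 12.2 and 8.24 CPM at initial maturity. Every discoloration library and every initial maturity library lay above every green fruit library, and green fruit library 1 was the highest of its stage. The means were 2.56 ± 1.27 CPM in green fruit, 13.8 ± 1.08 CPM at discoloration and 9.61 ± 2.24 CPM at initial maturity (SD, n = 3 each). The raw counts behind them were modest, from 68 to 146 in green fruit, 269 to 321 at discoloration and 128 to 193 at initial maturity.

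At discoloration PYL3 was 5.41-fold higher than in green fruit (log2 fold change 2.44, SE 0.33, adjusted p = 5.93e-04). That change exceeded those of 94.8% of all genes tested. With library totals it was smaller but still called (log2 fold change 1.49, adjusted p = 9.37e-04), and lay above the median of all genes on that scale by 2.52. At initial maturity PYL3 was 3.77-fold higher than in green fruit (log2 fold change 1.92, SE 0.32, adjusted p = 7.87e-04). With library totals this second difference kept its sign but not its call (log2 fold change 0.61, adjusted p = 0.0536), although it was still above the median of all genes on that scale, by 2.001. From discoloration on, the libraries did not overlap and those of initial maturity were lower, but the difference did not pass the test (log2 fold change -0.52, SE 0.31, adjusted p = 0.213). It passed without green fruit library 1, which belongs to neither stage but shares the estimate of the spread (log2 fold change -0.52, adjusted p = 0.0326), and with library totals (-0.88, adjusted p = 0.0251).

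**Figure D1:**
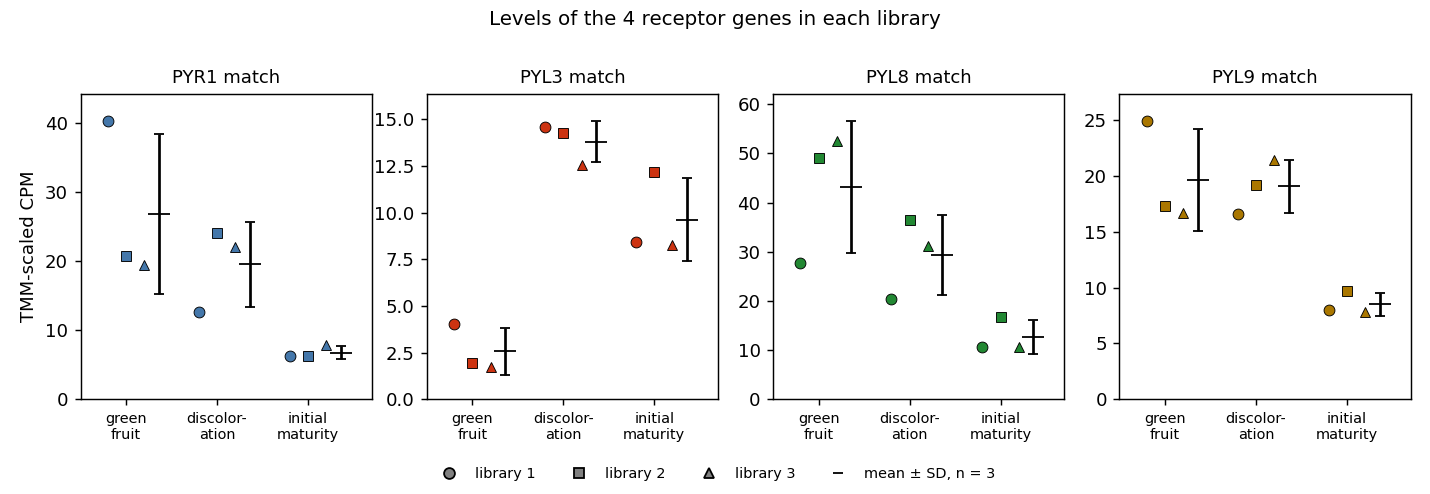
TMM-scaled CPM (vertical axes, each from 0) of the 4 receptor genes in the 3 stages in developmental order. Symbols are single libraries and bars are mean ± SD (n = 3); PYL3 sits at 1.74 to 4.02 CPM in green fruit and at 8.24 CPM or above later, while the other genes are lowest at initial maturity.

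PYR1 had 40.2, 20.7 and 19.5 CPM in green fruit libraries 1 to 3, 12.5, 24.03 and 22.01 CPM at discoloration and 6.18, 6.26 and 7.79 CPM at initial maturity. The initial maturity libraries were below all others, whereas green fruit and discoloration overlapped. Green fruit library 1 was the highest of all 9 and discoloration library 1 the lowest of its stage, and both are libraries that stood apart.

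Mean levels of PYR1 were 26.8 ± 11.6 CPM in green fruit, 19.5 ± 6.13 CPM at discoloration and 6.74 ± 0.910 CPM at initial maturity (SD, n = 3 each). PYR1 fell 2.90-fold at initial maturity relative to discoloration (log2 fold change -1.53, SE 0.34, adjusted p = 0.00766) and 3.97-fold relative to green fruit (log2 fold change -1.99, SE 0.34, adjusted p = 8.17e-04). Between discoloration and green fruit its log2 difference of -0.46 (SE 0.32) did not pass the test (adjusted p = 0.287). That difference turned to 0.20 (adjusted p = 0.0251) when the 3 libraries standing apart were left out, and was -1.39 (adjusted p = 0.00255) with library totals. Leaving out those 3 libraries keeps only the close pairs. The adjusted p-values of that setting, here and below, therefore rest on the small spread within the pairs.

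PYL8 had 27.8, 49.02 and 52.6 CPM in green fruit libraries 1 to 3, 20.5, 36.4 and 31.2 CPM at discoloration and 10.7, 16.7 and 10.6 CPM at initial maturity. Initial maturity was again below every library of both earlier stages, and green fruit and discoloration overlapped through green fruit library 1. In contrast to PYR1 and PYL3, and to PYL9 below, PYL8 was lowest, not highest, in green fruit library 1.

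The means of PYL8 were 43.1 ± 13.4 CPM in green fruit, 29.4 ± 8.14 CPM at discoloration and 12.7 ± 3.53 CPM at initial maturity (SD, n = 3 each). It fell 2.32-fold at initial maturity relative to discoloration (log2 fold change -1.21, SE 0.31, adjusted p = 0.0151) and 3.40-fold relative to green fruit (log2 fold change -1.77, SE 0.31, adjusted p = 0.00106). The first of these calls was lost without discoloration library 2 (adjusted p = 0.0632), discoloration library 3 (0.0506), initial maturity library 1 (0.0571) or initial maturity library 3 (0.0572). Between discoloration and green fruit the log2 difference was -0.55 (SE 0.30, adjusted p = 0.175), and it passed without green fruit library 1 (-0.78, adjusted p = 0.0295), without the 3 libraries standing apart (-0.58, adjusted p = 5.53e-09) and with library totals (-1.57, adjusted p = 0.00281). The very low value without the 3 libraries again rests on the spread within the close pairs alone.

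PYL9 had 24.9, 17.3 and 16.6 CPM in green fruit libraries 1 to 3, 16.6, 19.2 and 21.4 CPM at discoloration and 8.03, 9.67 and 7.79 CPM at initial maturity. The libraries of the first 2 stages covered nearly the same range, and those of initial maturity lay below both. Its raw counts were 652 to 905 in green fruit, 326 to 458 at discoloration and 121 to 153 at initial maturity.

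Mean PYL9 was 19.6 ± 4.57 CPM in green fruit, 19.1 ± 2.39 CPM at discoloration and 8.49 ± 1.02 CPM at initial maturity (SD, n = 3 each). PYL9 fell 2.24-fold at initial maturity relative to discoloration (log2 fold change -1.17, SE 0.20, adjusted p = 0.00244) and 2.31-fold relative to green fruit (log2 fold change -1.21, SE 0.20, adjusted p = 6.51e-04). Discoloration and green fruit differed by -0.040 on the log2 scale (SE 0.19, adjusted p = 0.887), a value whose sign turned without green fruit library 1 (0.17, adjusted p = 0.357), without discoloration library 1 (0.053, adjusted p = 0.871) and without the 3 libraries standing apart (0.26, adjusted p = 0.00505). With library totals it was -1.003 and called (adjusted p = 6.47e-04), which lies 0.024 above the median of all genes on that scale.

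**Figure D2:**
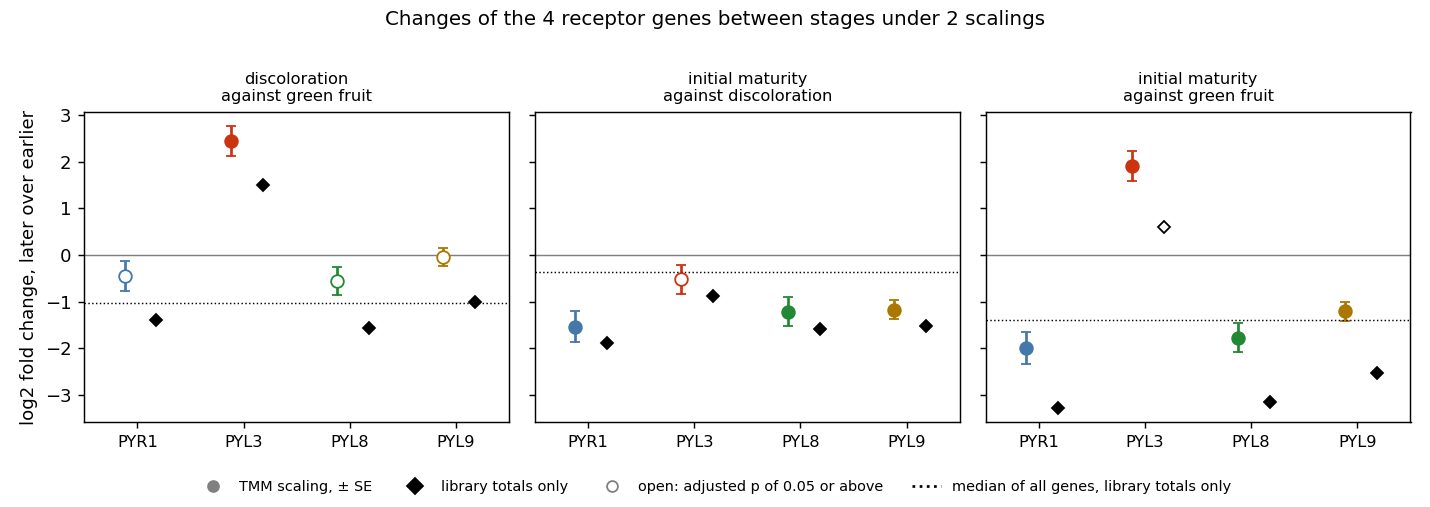
Log2 fold change of the later over the earlier stage (vertical axis) for each receptor gene in the 3 comparisons. Circles are values with TMM scaling ± SE, diamonds are values with library totals only, open symbols have an adjusted p of 0.05 or above and the dotted line is the median of all genes with library totals; PYL3 lies at 2.44 and 1.92 in the comparisons with green fruit, and the other 3 genes lie below 0 in every panel.

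Read against the whole table, 1 of the 4 genes was called for discoloration against green fruit and it was higher, where 39.5% of all genes were called, 19.5% higher and 19.9% lower. Called at initial maturity against discoloration were 3 of 4, all lower, where 36.4% of all genes were called, 16% higher and 20.4% lower. At initial maturity against green fruit all 4 were called, 1 higher and 3 lower, where 60.8% of all genes were called, 28.3% higher and 32.5% lower. With library totals the 4 genes gave 1 higher and 3 lower calls for discoloration against green fruit, where 76.0% of all genes were called, 7.74% higher and 68.3% lower. For initial maturity against discoloration all 4 were then called lower, where 38.4% of all genes were called, 7.98% higher and 30.4% lower. For initial maturity against green fruit 3 were then called lower and PYL3 was not called, where 82.6% of all genes were called, 8.86% higher and 73.7% lower. Discoloration libraries did not overlap with those of green fruit for PYL3 alone, which was higher; of all genes 27.1% were so separated upward and 27.1% downward. Initial maturity libraries lay wholly below those of discoloration for 4 of 4 genes, against 30.7% of all genes, with 27.9% wholly above. They lay wholly above those of green fruit for PYL3, against 31.3% of all genes, and wholly below for the other 3, against 34.8%. The F test over the 3 stages called all 4 genes, with adjusted p from 5.74e-04 for PYL3 to 0.00292 for PYL8, where 65.4% of all genes were called. The 3 comparisons share libraries and are not independent of each other. When both libraries of a close pair were summed and counted once, which leaves 2 libraries a stage, the falls at initial maturity relative to discoloration kept their direction but not their call, at -1.43 for PYR1 (adjusted p = 0.0887), -0.997 for PYL8 (adjusted p = 0.175) and -1.07 for PYL9 (adjusted p = 0.0723).

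Whether a gene changed by a different amount in the later interval than in the earlier one was tested directly. The later log2 change minus the earlier one was -2.96 (SE 0.52, adjusted p = 0.00511) for PYL3 and -1.13 (SE 0.33, adjusted p = 0.0404) for PYL9, and 20.0% of all genes were called in this test, 6.58% with a higher and 13.4% with a lower change in the later interval. For PYR1 the difference was -1.08 (SE 0.55, adjusted p = 0.199), and it passed without green fruit library 1 (-1.50, adjusted p = 0.0185). For PYL8 it was -0.66 (SE 0.52, adjusted p = 0.409). The call of PYL9 was lost when any one of 7 libraries was left out, with adjusted p up to 0.175 without discoloration library 3, and held without initial maturity library 2 or green fruit library 1. It was also lost with library totals (-0.52, adjusted p = 0.188). The call of PYL3 was lost with the close pairs added together (-2.74, adjusted p = 0.119).

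The authors' deposited table holds its own log2 ratios, which run from the earlier over the later stage and were turned round here. In the authors' deposited table PYL3 stood at 2.42 for discoloration against green fruit (adjusted p = 4.13e-08), and PYR1, PYL8 and PYL9 stood at -0.47, -0.56 and -0.051 with adjusted p of 0.732, 0.383 and 1. At initial maturity against discoloration the authors' deposited table gives -1.54 for PYR1, -1.21 for PYL8 and -1.17 for PYL9, each with an adjusted p of 0.00449 or below, and -0.52 for PYL3 with an adjusted p of 0.155. The calls at an adjusted p of 0.05 in the authors' deposited table are thus those of the edgeR fit for all 4 genes in both intervals.

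Levels of different genes were compared per kb of deposited gene length, as TMM-scaled CPM per kb. In green fruit the order was PYL8 (57.7 ± 17.96), PYR1 (36.2 ± 15.7), PYL9 (23.5 ± 5.48) and PYL3 (4.12 ± 2.04 CPM per kb; SD, n = 3). Only PYL9 and PYL3 were neighbours whose libraries did not overlap. At discoloration all neighbours overlapped, with PYL8 at 39.3 ± 10.9, PYR1 at 26.4 ± 8.27, PYL9 at 22.8 ± 2.86 and PYL3 at 22.2 ± 1.75 CPM per kb.

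At initial maturity the order had changed to PYL8 (17.0 ± 4.73), PYL3 (15.5 ± 3.60), PYL9 (10.2 ± 1.22) and PYR1 (9.10 ± 1.23 CPM per kb). PYL3 and PYL9 did not overlap there, and PYL8 was the first of the 4 in each library of the series except green fruit library 1, where PYR1 was first. PYL3 was the last of the 4 in every green fruit library and the second in every initial maturity library.

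As a share of the summed level of the 4 genes per kb, PYL3 made up 5.06%, 2.63% and 2.34% in green fruit libraries 1 to 3, 26.8%, 18.1% and 17.2% at discoloration and 29.6%, 31.6% and 28.1% at initial maturity. These shares do not depend on how libraries are scaled. The share of PYL3 was above every green fruit value in all 6 later libraries, and the initial maturity values lay above those of discoloration. PYL8 made up 48.0%, 35.1% and 32.4% on average in the 3 stages, with 29.1%, 55.9% and 59.0% in the 3 green fruit libraries. The average share of PYR1 was 29.4%, 23.4% and 18.02% in the same order of stages, and that of PYL9 was 19.2%, 20.9% and 19.8%.

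**Figure D3:**
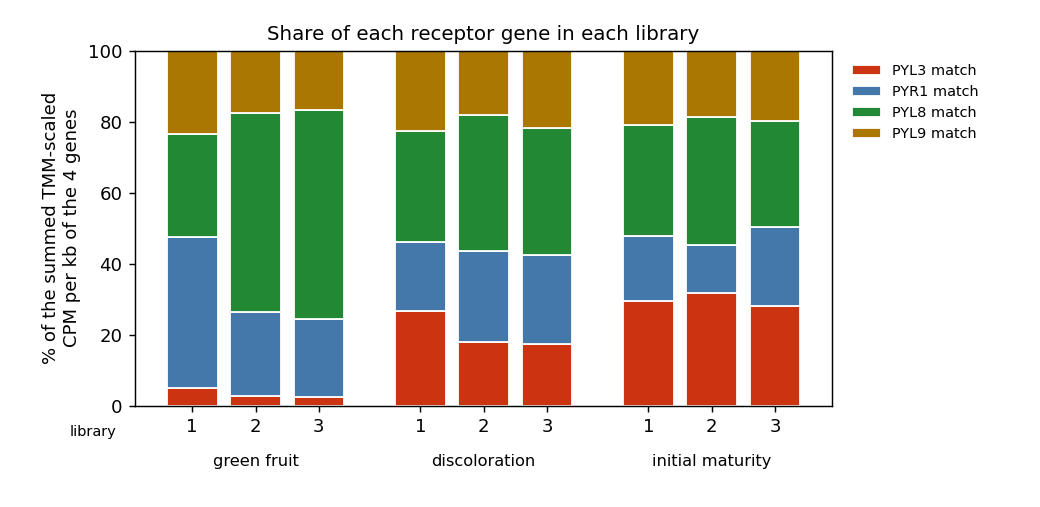
Share of each receptor gene in the summed TMM-scaled CPM per kb of the 4 genes (vertical axis, %), 1 bar for each library, stages in developmental order. PYL3 takes 2.34% to 5.06% in green fruit and 28.1% to 31.6% at initial maturity, and green fruit library 1 differs from libraries 2 and 3 in its larger PYR1 and smaller PYL8 part.

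The sum of the 4 genes was 122 ± 5.45 CPM per kb in green fruit, 111 ± 20.5 CPM per kb at discoloration and 51.7 ± 8.998 CPM per kb at initial maturity (SD, n = 3). Initial maturity libraries, at 45.8 to 62.1 CPM per kb, lay below all others, and green fruit and discoloration overlapped. On the deposited FPKM scale, which carries no correction for composition, the same sums were 208 ± 14.2, 96.1 ± 21.0 and 34.8 ± 3.94, and all 3 stages were apart. In whole seed RNA, fewer cells of a type and less RNA per cell cannot be told apart, and this holds for each level given here.

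Markers of other tissues moved with the stages and with green fruit library 1. The summed level of the 21 green tissue genes (names of the ribulose bisphosphate carboxylase small chain and of chlorophyll a-b binding proteins) was 1663 to 3890 CPM in green fruit, 608 to 865 CPM at discoloration and 58.5 to 70.1 CPM at initial maturity, with none of the 21 at 0 in green fruit and 1 to 3 at 0 at initial maturity. The 5 secondary wall genes (cellulose synthase subunits 4, 7 and 8) summed to 57.5, 620 and 639 CPM in the 3 green fruit libraries, to 8.78 to 20.2 CPM at discoloration and to 10.1 to 12.4 CPM at initial maturity, with 1 gene at 0 in every library. The 16 storage genes summed to 58775, 16608 and 17209 CPM in the 3 green fruit libraries. The 19 pollen-named genes summed to 297 to 376, 201 to 224 and 235 to 258 CPM in the 3 stages, with 4 to 7 of them at 0. In green fruit, PYL3, PYR1 and PYL9 were thus highest, and PYL8 lowest, in the library with the most storage and least secondary wall and green tissue signal. The part of tissue make-up in the receptor changes was not tested.

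The other 12 receptor matches had lower mean levels per kb over the 9 libraries than the 4 genes, and 11 of them passed the filter. For discoloration against green fruit 0 of the 11 were called higher and 2 lower in the edgeR fit, both matching PYR1, and leaving out 1 library took them to an adjusted p of up to 0.0940 and 0.0851. Of all genes 19.5% were called higher and 19.9% lower, so the number lower is near that of the whole table. Uncalled, but wholly above green fruit, were the PYL4 match FtPinG0000874700.01 (log2 fold change 1.11, adjusted p = 0.0602) and the PYL6 match (1.75, adjusted p = 0.119). Wholly below were these 2 PYR1 matches and the PYL4 match FtPinG0005799600.01, beside 27.1% of all genes each way. DESeq2 (adjusted p = 0.0437) and the authors' deposited table (0.0408) called FtPinG0000874700.01 higher, but library totals did not (0.14, adjusted p = 0.762). At initial maturity against discoloration 2 were called higher and 5 lower, where 16% of all genes were higher and 20.4% lower. Of these 7 calls, 6 were lost with the close pairs added together, the exception being the PYL4 match FtPinG0002102600.01. Leaving out 1 library ended the call in 7 of 9 fits for the PYL4 match FtPinG0000874700.01 (adjusted p up to 0.115), in 7 of 9 for the PYL4 match FtPinG0007619900.01 (up to 0.176), in 5 of 9 for the PYR1 match FtPinG0008047400.01 (up to 0.0993) and in 2 of 9 for the PYL2 match (up to 0.0626). For initial maturity against green fruit 2 were called higher and 3 lower, where 28.3% of all genes were higher and 32.5% lower. One of the higher calls, that of the PYL6 match (FtPinG0002445200.01), was lost without initial maturity library 2 (adjusted p = 0.0779). With library totals the counts became 0 and 5, 1 and 5, and 1 and 9. Of all genes, 7.74%, 7.98% and 8.86% were then called higher, and 68.3%, 30.4% and 73.7% lower. The median log2 change of the 11 in the 3 comparisons was -0.14, -0.85 and -0.62 with TMM.

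Among them the PYL10 match (FtPinG0002311400.01), named after a monomeric Arabidopsis receptor, had 1.85, 5.12 and 1.93 CPM at initial maturity, against 0.714, 0.178 and 0.420 CPM at discoloration. It rose at initial maturity relative to discoloration (log2 fold change 2.76, SE 0.58, adjusted p = 0.00640), a call lost with the close pairs added together (2.83, adjusted p = 0.0652). A PYL4 match (FtPinG0002102600.01) had 0.191, 0.821 and 0.837 CPM at initial maturity, against 3.96, 11.3 and 9.82 CPM in green fruit, and fell (log2 fold change -3.75, SE 0.52, adjusted p = 2.67e-04). A PYL2 match (FtPinG0008891400.01) had 0 counts in all initial maturity libraries, against 50 counts in green fruit and 23 at discoloration. Set against 3 counts over the group, its level at initial maturity was at least 6.30-fold lower than in green fruit and at least 5.68-fold lower than at discoloration. FtPinG0005265100.01 carries the name PYL9, but its match is weak (E-value 3.34e-20) and its KEGG name is that of a nucleoside hydrolase. The 4 genes held 71.8 ± 2.19%, 72.5 ± 4.29% and 63.6 ± 2.75% of the summed level of all 16 per kb in the 3 stages.

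**Figure D4:**
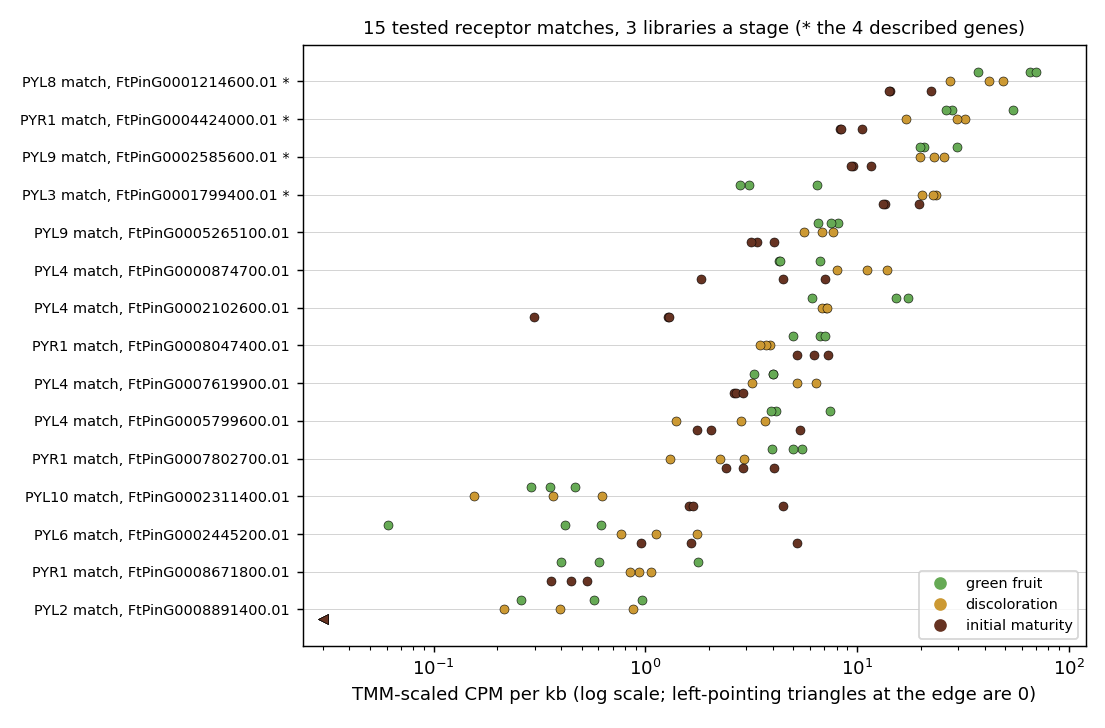
TMM-scaled CPM per kb (horizontal axis, log scale) of the 4 receptor genes, marked with an asterisk, and of the 11 other tested receptor matches in each library, coloured by stage. Rows are ordered by mean CPM over all libraries, which puts the 4 genes at the top. PYL3 is the only one of the 4 whose green fruit points lie left of the later ones. Among the other matches, those of the PYL6 match do so too, at 0.616 CPM per kb or below in green fruit and 0.767 or above later. The PYL2 match is at 0 in initial maturity.

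Of the called genes named for steps downstream of the receptors, most were higher at discoloration than in green fruit on the TMM scale. The lists were matched by name, and whether each member acts in this pathway was not tested. Of all genes, 39.5% were called in this comparison, 19.5% higher and 19.9% lower. Of 8 clade A phosphatase genes, which encode the direct targets of the receptors, 3 were called higher and 2 lower (median log2 change 0.51, beside -0.041 for all genes). The most abundant, a match of Probable protein phosphatase 2C 24 (FtPinG0006346100.01), had 196, 195 and 199 CPM at discoloration, against 30.7, 12.7 and 14.2 CPM in green fruit (log2 fold change 3.36, SE 0.38, adjusted p = 2.68e-04). Of 12 SnRK2 kinase genes, 6 were called higher and 2 lower (median 0.69). The match of SRK2E (FtPinG0009356000.01), the kinase known as OST1 in Arabidopsis, had 89.9, 89.5 and 89.7 CPM at discoloration, against 41.7, 44.0 and 43.6 CPM in green fruit (log2 fold change 1.06, SE 0.23, adjusted p = 0.00659). This call was lost with library totals (0.065, adjusted p = 0.793) and with the close pairs added together (1.08, adjusted p = 0.0981). The more abundant match of SRK2B (FtPinG0004981400.01) had 115, 109 and 98.8 CPM at discoloration, against 89.9, 96.1 and 94.8 CPM in green fruit. It was not called in the edgeR fit, with log2 changes of 0.16 to 0.26 when 1 library was left out (adjusted p of 0.247 to 0.501).

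Of 11 bZIP factor genes, 3 were called higher and 2 lower at discoloration relative to green fruit (median 0.80), numbers near the share of all genes, and both the ABI3 and the ABI4 match, which encode seed maturation regulators, were called higher. The call of ABI3 was lost with the close pairs added together (adjusted p = 0.103). The ABI5 match (FtPinG0003523300.01), the bZIP factor that acts in seeds, had 158, 131 and 124 CPM at discoloration, against 39.96, 12.5 and 12.8 CPM in green fruit (log2 fold change 2.66, SE 0.44, adjusted p = 0.00163). Like PYL3, PYR1 and PYL9, it was highest in library 1 of green fruit. Of 12 abscisic acid-responsive seed protein genes 8 were called higher and 0 lower (median 2.83). With library totals the numbers called higher and lower became 3 and 3 for the phosphatases, 4 and 6 for the kinases, 3 and 5 for the bZIP factors and 7 and 3 for the seed proteins, where 7.74% of all genes were called higher and 68.3% lower.

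Between initial maturity and discoloration the same lists had 2 higher and 0 lower of 8 phosphatase genes, 3 higher and 1 lower of 12 kinase genes, 2 higher and 4 lower of 11 bZIP genes and 3 higher and 0 lower of 12 seed protein genes. Of all genes 36.4% were called here, 16% higher and 20.4% lower, so the phosphatase, kinase and seed protein lists had no larger share called than the whole table. With library totals the counts became 1 and 0, 1 and 2, 1 and 4, and 2 and 0, where 7.98% of all genes were higher and 30.4% lower. In this interval PYR1, PYL8 and PYL9 fell. The summed level of the phosphatase list was 927 to 1346 CPM at initial maturity, against 573 to 647 CPM at discoloration, so these libraries did not overlap. Of all single genes, 27.9% were so separated upward. Much of this sum comes from the 2 most abundant genes, both matches of Probable protein phosphatase 2C 24. They averaged 375 and 322 CPM at initial maturity, against 197 and 171 CPM at discoloration, so the sum does not describe the list as a whole. Both intervals together, initial maturity against green fruit, gave 4 higher and 2 lower phosphatase genes, 6 and 3 kinase genes, 4 and 4 bZIP genes, and 11 and 0 seed protein genes, which became 3 and 4, 4 and 6, 3 and 6, and 9 and 2 with library totals. Of all genes 60.8% were called in that comparison, 28.3% higher and 32.5% lower, and with library totals 8.86% higher and 73.7% lower. The ABI3 and ABI4 matches were called higher there with TMM and not called with library totals. The call of ABI3 (adjusted p = 0.0269) was also lost in 5 of the 9 fits that leave out 1 library, without green fruit library 2 (0.0824) or 3 (0.0819) or any one initial maturity library (0.0540 to 0.0619), with only the stages compared (0.0610) and with the close pairs added together (0.196). No list was tested as a set.

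Called genes that make, break down or move the hormone went in both directions. For discoloration against green fruit, 9 of 21 synthesis genes were called higher and 2 lower, 3 of 9 breakdown and conjugation genes higher and 2 lower, 3 of 8 transport genes higher and 3 lower, and 6 of 10 genes of receptor recruitment and turnover higher and 0 lower, beside 19.5% higher and 19.9% lower of all genes. With library totals these became 5 and 7, 2 and 4, 1 and 5, and 4 and 4, beside 7.74% and 68.3%. The synthesis list also holds molybdenum cofactor sulfurase matches named after proteins of animals and a fungus. The match of Abscisic-aldehyde oxidase (FtPinG0002397900.01), the last enzyme of synthesis, had 376, 166 and 156 CPM at discoloration, against 27.1, 52.5 and 51.8 CPM in green fruit (log2 fold change 2.41, SE 0.41, adjusted p = 0.00201). A match of Abscisic acid 8'-hydroxylase 2 (FtPinG0002387400.01), which starts breakdown, had 49.8, 19.5 and 24.6 CPM at discoloration, against 5.39, 7.28 and 8.27 CPM in green fruit (log2 fold change 2.16, SE 0.34, adjusted p = 0.00126). A more abundant match of the same enzyme (FtPinG0003175900.01) had 38.1, 31.3 and 30.5 CPM at discoloration, against 13.6, 29.1 and 30.5 CPM in green fruit. That match was not called in the edgeR fit, with log2 changes of 0.16 to 0.63 when 1 library was left out (adjusted p of 0.165 to 0.465). In the later interval the higher and lower calls were 5 and 2 of 21, 0 and 3 of 9, 1 and 4 of 8, and 2 and 2 of 10, beside 16% and 20.4% of all genes. With library totals these were 3 and 4, 0 and 4, 0 and 5, and 1 and 3, beside 7.98% and 30.4% of all genes. With TMM the synthesis, breakdown and recruitment lists thus had a share called near that of the whole table, 36.4%.

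**Figure D5:**
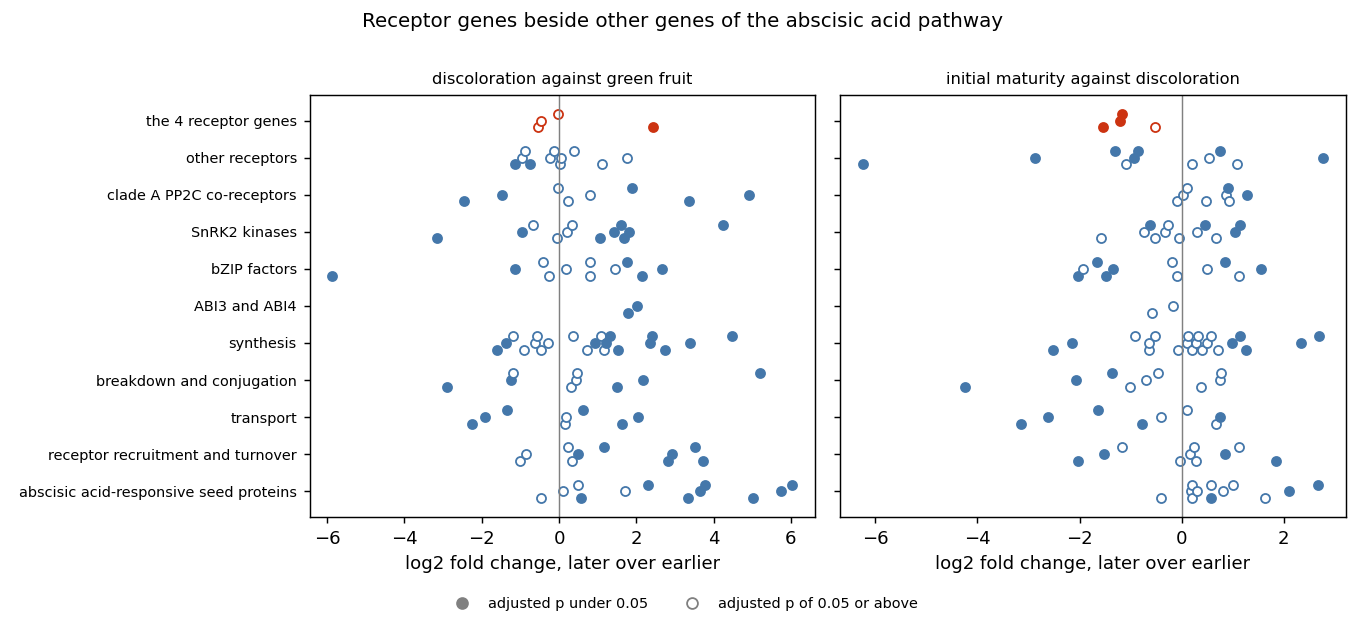
Log2 fold change of the later over the earlier stage (horizontal axis) of the 4 receptor genes (top line of points) and of each tested gene of 10 abscisic acid pathway lists, for the 2 adjacent comparisons with TMM scaling. Filled points have an adjusted p under 0.05; the 4 receptor genes lie between -0.55 and 2.44 in the earlier interval and between -1.53 and -0.52 in the later one.

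The genes most like each receptor gene across the 9 libraries were found by Pearson's r of log2(CPM + 1) among 17584 annotated genes, as a description, since all genes share the stages and the libraries that stood apart. PYR1 lay closest to a SPIRAL1-like 1 match (r = 0.992), an alkane hydroxylase MAH1 match (r = 0.989) and an AT-hook motif nuclear-localized protein 9 match (r = 0.989). PYL3 lay closest to matches of inositol-3-phosphate synthase (r = 0.996), heavy metal-associated isoprenylated plant protein 26 (r = 0.994) and a 17.9 kDa class II heat shock protein (r = 0.993). The inositol-3-phosphate synthase match averaged 240 CPM in green fruit, 1455 CPM at discoloration and 941 CPM at initial maturity.

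PYL8 lay closest to matches of sucrose-phosphatase 2 (r = 0.990), elongation factor P (r = 0.986) and the ubiquitin ligase FANCL (r = 0.986), and PYL9 to matches of mitochondrial formate dehydrogenase (r = 0.984), vesicle-associated protein 1-2 (r = 0.984) and RHOMBOID-like protein 9 (r = 0.983). An r above 0.9 was reached by 464 genes for PYR1, 720 for PYL3, 861 for PYL8 and 386 for PYL9. Among the 4 genes themselves r was 0.95 for PYR1 and PYL9, 0.77 for PYR1 and PYL8 and 0.79 for PYL8 and PYL9. PYL3 had an r of -0.37 with PYR1, -0.54 with PYL8 and -0.21 with PYL9.

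The deposited variant tables list 1 SNP site inside the 4 genes, in PYL8 at position 38583249 of chromosome 7, and all 9 libraries carry the reference call there. Within 500 bases outside the genes they list 3 sites, all beside PYL3. At 2 SNP sites, at 28504933 and 28505028 of chromosome 6, the call was the reference in 9 of 9 libraries. At 1 InDel site, at 28504955, which lies 103 bases beyond the start coordinate and so downstream of this minus-strand gene, the call was not the reference in 9 of 9 libraries. No listed site therefore differed between libraries or stages.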

How the data were processed

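Per the file headers, the authors deposited counts of reads for each gene, covering 31839 gene models and 2092 further genes defined by the authors. The submitters' processing notes name Bowtie2 2.0.6 and TopHat2 2.0.12. The read counter, genome build, annotation release and treatment of reads matching several genes were not given in the sources used here. Values of near-identical receptor copies are therefore uncertain. The kit leaves strand unmarked, so an overlapping antisense gene cannot be told apart. The deposited FPKM values of the 4 genes equal the count scaled to deposited length and library total within a relative tolerance of 0.001. The authors' deposited gene table also holds log2 ratios and p-values from an unstated test, and a Swiss-Prot match for 23451 genes.

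Counts were tested with edgeR 4.0.16 in R 4.3.3 (glmQLFit and glmQLFTest, TMM scaling, filterByExpr with a minimum count of 10) in 1 fit of all 9 libraries with no replicate term. Of the genes, 23631 passed the filter and 10300 did not. P-values are two-sided and adjusted by Benjamini-Hochberg over the 23631, with a threshold of 0.05. Each SE was obtained from the log2 fold change and the F statistic, so it restates the test. The common biological coefficient of variation was 0.289. Depth was 21585045 to 26777643 counts per library. Levels are TMM-scaled CPM, and per kb of deposited length where genes are compared. Code for the fit was tested on simulated data. Alternatives were DESeq2 1.42.0, limma 3.58.1 on log2(FPKM + 1) and log2(FPKM + 0.1), library totals, no filter, a replicate block, only the stages compared, and libraries left out or added together. All but limma were extended to the other pathway genes after seeing the data.

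The members and lists were chosen with earlier results of these data known. Genes named are the 4 receptor genes, for each the 3 annotated genes with the highest r, and in each of 10 lists matched by Swiss-Prot name the 2 with the highest mean CPM (all tested genes of the other receptors). A few of the genes so named are left without values. The variant tables hold 18 columns of per-sample calls that match no sample here and were not used, nor was the annotation of the authors' own genes.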

Additional observations from a re-analysis of the deposited data

Results flagged for a closer look

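For PYL3 (FtPinG0001799400.01) the change in the later interval differed from that in the earlier interval: the later log2 change minus the earlier one was -2.96 (edgeR, adjusted p = 0.00511), made of -0.52 for initial maturity against discoloration and 2.44 for discoloration against green fruit. All 3 discoloration libraries lay above all 3 green fruit libraries, as for 27.1% of all genes. All 3 initial maturity libraries lay below all 3 discoloration libraries, as for 30.7% of all genes, but this later difference was not called (edgeR, adjusted p = 0.213). The test of the interval difference called 20.0% of all genes. The PYL3 call in it was lost with the close pairs added together (adjusted p = 0.119).

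For PYL9 (FtPinG0002585600.01) the same difference was -1.13 (edgeR, adjusted p = 0.0404), made of -1.17 in the later and -0.040 in the earlier interval. This call was lost when any one of 7 of the 9 libraries was left out, with adjusted p from 0.0543 without discoloration library 1 to 0.175 without discoloration library 3.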

How the results depend on the processing

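The falls of PYR1, PYL8 and PYL9 at initial maturity relative to green fruit and the rise of PYL3 at discoloration relative to green fruit kept direction and call in every alternative run. Their sizes moved with the scaling, and the rise of PYL3 was 1.49 with library totals against 2.44 with TMM. Library totals in place of TMM gave log2 values for discoloration against green fruit of -1.39 (PYR1), -1.57 (PYL8) and -1.003 (PYL9), all now called, -0.88 for PYL3 at initial maturity against discoloration (now called), 0.61 for PYL3 at initial maturity against green fruit (call lost) and -0.52 for the interval difference of PYL9 (call lost). Limma on log2(FPKM + 1) and log2(FPKM + 0.1), also scaled to library totals, gave -1.37 and -1.41 (PYR1), -1.50 and -1.52 (PYL8) and -0.97 and -1.005 (PYL9) for discoloration against green fruit, -0.83 and -0.89 (PYL3) for initial maturity against discoloration, all now called, and -0.42 and -0.50 for the interval difference of PYL9 (call lost); with FPKM + 1 the interval difference of PYL8 turned to 0.020.

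Without the 3 libraries standing apart, which leaves the close pairs and a small spread, discoloration against green fruit turned to 0.20 (PYR1) and 0.26 (PYL9) and was -0.58 (PYL8), initial maturity against discoloration was -0.69 (PYL3), and the interval differences were -1.92 (PYR1) and -1.09 (PYL8), all called. With each close pair added together as 1 library, which leaves 2 libraries a stage, calls were lost for initial maturity against discoloration of PYR1 (-1.43), PYL8 (-0.997) and PYL9 (-1.07), for the interval differences of PYL3 (-2.74) and PYL9 (-0.90) and for the F test of PYL8 (adjusted p = 0.0690). The replicate block lost the interval difference of PYL9 (-1.14, adjusted p = 0.0718) and no other call of the 4 genes. Deviations of same-numbered libraries from their stage means correlated at -0.15 to 0.19. In this comparison 0 libraries correlated best with their own number in both other stages at once. The library standing apart in each stage weighs on these deviations, so they cannot decide whether the numbers pair the libraries.

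Leaving out 1 library at a time gave -0.78 to -0.35 (PYL8) and -0.15 to 0.17 (PYL9) for discoloration against green fruit, -0.73 to -0.42 (PYL3) and -1.47 to -1.02 (PYL8) for initial maturity against discoloration, and -1.56 to -0.72 (PYR1) and -1.34 to -0.95 (PYL9) for the interval difference.

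Genes called for discoloration against green fruit numbered 9326, and 17967 with library totals, 17730 without the libraries standing apart and 2877 with pairs added together. For initial maturity against discoloration they numbered 8608, and 16195, 1663 with the last 2 settings and 5325 to 12190 with 1 library left out (5325 without discoloration library 3, 5328 without discoloration library 2). For initial maturity against green fruit they numbered 14361, and 9183 with pairs added together. Other pathway genes called numbered 58 for discoloration against green fruit, with 88 and 30 in those 2 settings, and 41 for initial maturity against discoloration, with 79 and 5, and 27 to 61 with 1 library left out (27 without discoloration library 3). These come from 10 lists with 2 to 21 tested genes each. In the main fit 39.5% and 36.4% of all genes were called in these 2 comparisons. The numbers for all genes above rose and fell in the same settings, so the pathway numbers are to be read beside them.

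Of the 87 changes of other named pathway genes, 19 kept their sign but lost their call with pairs added together, 18 kept it and gained a call without the libraries standing apart, and with library totals 7 kept it and lost a call and 10 kept it and gained one. These settings were extended to the other pathway genes after seeing the data. The sign turned as follows, and the cause was not tested. With library totals, discoloration against green fruit became -0.60 (PYL4 match FtPinG0007619900.01), -0.98 (PYL10), -0.86 (PYR1 match FtPinG0008671800.01), -0.80 (SRK2B), -0.59 (8'-hydroxylase 2, FtPinG0003175900.01), -0.83 (ABC transporter G 30), -0.50 (ELC) and -0.68 (C2-DOMAIN ABA-RELATED 11); initial maturity against discoloration became -0.18 (PYL4 match FtPinG0005799600.01), -0.019 (molybdenum cofactor sulfurase), -0.25 (ABC transporter G 31), -0.062 (ELC), -0.051 (LEA D-34) and -0.16 (LEA 2); and initial maturity against green fruit became -1.36 (PYR1 match FtPinG0008047400.01), -0.67 (SRK2B), -0.073 (ABI3), -0.15 (8'-hydroxylase 2, FtPinG0003175900.01), -0.56 (ELC) and -0.19 (C2-DOMAIN ABA-RELATED 11). Without the libraries standing apart, values turned to -0.66 (PYL10) and 0.67 (PYL2 match) for discoloration against green fruit, -0.78 (FtPinG0005799600.01), 0.19 (abscisic-aldehyde oxidase) and -0.18 (LEA 2) for initial maturity against discoloration, and 0.42 (PYL4 match FtPinG0000874700.01) and -0.25 (FtPinG0008047400.01) for initial maturity against green fruit. Discoloration against green fruit turned to -0.17 with pairs added together and -0.0028 with DESeq2 for FtPinG0008671800.01, and for PYL10 to -0.032 with DESeq2 and -2.86e-05 with only the stages compared. FtPinG0008047400.01 at initial maturity against green fruit turned to -0.041 with DESeq2, -0.034 with no filter and -0.013 with only the stages compared. With 1 library left out, ranges that crossed 0 were -0.50 to 0.41 (PYL10), -0.32 to 0.93 (FtPinG0008671800.01) and -0.94 to 0.30 (PYL2 match) for discoloration against green fruit, -0.48 to 0.53 (FtPinG0005799600.01), -0.31 to 0.027 (ABI4), -0.74 to 0.014 (abscisic-aldehyde oxidase) and -0.12 to 0.36 (LEA 2) for initial maturity against discoloration, and -0.69 to 0.18 (FtPinG0000874700.01) and -0.13 to 0.12 (FtPinG0008047400.01) for initial maturity against green fruit.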
